A study of Mus musculus with 45 samples.

Results

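Interneuron lineage genes are the transcription factors and enzymes that mark GABAergic neurons born in the ventral telencephalon. The set followed here holds 9 genes, Dlx1, Dlx2, Dlx5, Lhx6, Gad1, Gad2, Sp8, Npas1 and Nkx2-1, chosen by name out of 53491 genes in the expression tables, and each of the 9 had 1 entry. Levels, 4-thiouridine labelling and RNA half-lives were measured by SLAM-seq, in which incorporated 4-thiouridine is read as T-to-C conversions, in primary cells from wild-type mouse cortex of embryonic days E11.5, E14.5 or E16.5. Each stage had 3 biological replicates (pools A, B and C), a pool holding the cortices of 7 embryos at E11.5 and of 2 embryos at the later stages. Dissociated cells were plated in neural progenitor medium with N2, B27 and bFGF, attached for 2 h and were labelled with 100 uM 4-thiouridine for 20 h. Label was then chased with 5 mM uridine, and RNA was taken at 0, 2, 4, 8 and 12 h, which gave 45 libraries in 15 groups of 3. No group carried a genetic change, and all groups were cultured, so that the 0 h libraries describe cells already in culture for the whole labelling period and not fresh tissue. Libraries held 15938793 to 43893597 reads in the table. Levels are given in cpm, a gene's reads scaled to a fixed total per library, and a single read was worth between 0.0207 and 0.0564 cpm.

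Cortical interneurons do not arise in the cortex. They are born in the ganglionic eminences and the preoptic area and reach the cortex by tangential migration, while the excitatory neurons of the cortex come from local radial glia. Dlx factors drive the GABAergic program in ventral progenitors and in migrating cells. Nkx2-1 specifies the medial ganglionic eminence and switches on Lhx6, which migrating interneurons of that origin keep after Nkx2-1 is turned off. Sp8 marks interneurons of other ventral origin and is also a patterning factor of cortical progenitors.

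The members are protein-coding genes, and 5 of 9 lie on chromosome 2 of the GRCm38 (mm10) build. Dlx1 (chr2:71528113-71533981, plus strand) and Dlx2 (chr2:71543408-71546754, minus strand) are neighbours. Gad1 lies at chr2:70553072-70602014, Gad2 at chr2:22622205-22693874 and Lhx6 at chr2:36081953-36105408. Dlx5 lies at chr6:6877805-6882085, Npas1 at chr7:16455721-16477728, Nkx2-1 at chr12:56531958-56536908 and Sp8 at chr12:118846329-118852576. Exons of Dlx1 overlap those of its antisense transcript Dlx1as over 335 bases, and exons of Lhx6 overlap Gm27953 on the same strand over 104 bases. Whether counting used strand is not given in the sources used here, so reads in those stretches are uncertain.

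Since RNA decay was measured, 3′ untranslated regions were searched on the sense strand for ATTTA, the core of AU-rich elements known from short-lived mRNAs. One annotated transcript per gene was used, and overlapping matches were counted. Sp8 held 14 ATTTA, Gad2 held 6, Lhx6 and Gad1 held 4 each, Dlx2 held 3 and Dlx1 held 2, while Dlx5, Npas1 and Nkx2-1 held 0. Of 20748 coding genes, 38.4% held no ATTTA, the median was 1, and 2.50% had at least as many as Sp8. These shares were not scaled by length, and the Sp8 region held 2704 bases against a median of 804. These matches describe letters in the annotation and are not shown to act on decay. A 30-base window of the 3′ untranslated region is printed for 5 members chosen for their decay. These were Sp8 with the shortest mean half-lives, Gad2 against Gad1, Lhx6, and Dlx2 for the rate left at 12 h. Of the windows placed around a gene's matches, the one with the most ATTTA was taken, so it need not be typical of the region. Windows run 5′ to 3′ on the gene's strand, with ATTTA in capitals (GENCODE, GRCm38):
Sp8 (chr12:118851352-118851381, plus strand): atgttggatgacATTTAATTTAatggcgca
Gad2 (chr2:22692934-22692963, plus strand): tagcaatatttcATTTAttATTTAaaatac
Lhx6 (chr2:36082145-36082174, minus strand): gtcatcgaggctATTTATTTAaacacacac
Dlx2 (chr2:71543680-71543709, minus strand): agatttccccacATTTAtttgtataaaaat
Gad1 (chr2:70601457-70601486, plus strand): agatatctgcttATTTAtattcaaatatat

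Expression at 0 h of chase was compared between stages to ask when interneuron transcripts appear in the cortical cultures. Lhx6, Npas1 and Nkx2-1 held at most a few reads per library at E11.5, Gad1 and Gad2 were low there, and all 5 were highest at E16.5. Dlx1, Dlx2 and Dlx5 were already present at E11.5, did not rise to E14.5 and rose between E14.5 and E16.5. Sp8 ran the other way and was lower at E16.5 than at E11.5. In bulk RNA, fewer cells of a type and less RNA per cell cannot be told apart.

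A gene was called changed at an adjusted p under 0.05 in edgeR's quasi-likelihood test and a log2 fold change over 1, and only genes with more than 10 covered-T counts in all 9 libraries at 0 h were tested. By this filter 6 of 9 members were tested, and Lhx6, Npas1 and Nkx2-1 were not, because libraries of the earlier stages held too few reads. From E11.5 to E14.5, 2 members rose and 1 fell of 6, where 16.1% of 18408 genes were called (1494 higher and 1462 lower). From E14.5 to E16.5, 5 of 6 rose and 0 fell, where 13.0% of genes were called (1312 higher and 1078 lower). Over the whole interval from E11.5 to E16.5, 4 of 6 rose and 1 fell, where 29.2% of genes were called (2702 higher and 2670 lower). With no filter on low counts all 9 members were tested, of which 4 rose and 1 fell in the first interval (10.7% of 30672 genes were called), 8 rose and 0 fell in the second (7.79%), and 7 rose and 1 fell over the whole interval (19.1%).

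**Figure D1:**
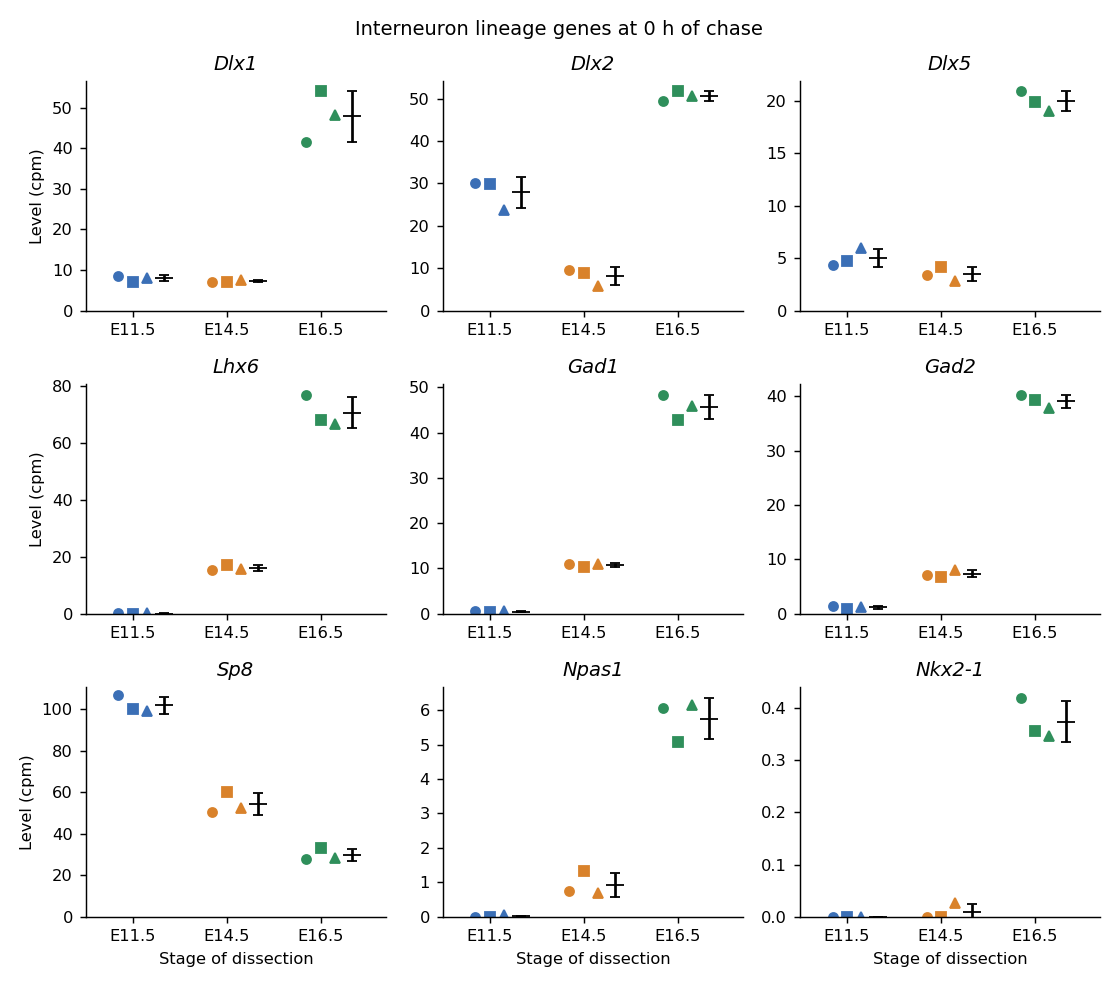
Level of each of the 9 members at 0 h of chase in cpm (vertical axis, linear and scaled per gene) by stage (horizontal axis), with 1 point per pool (circle A, square B, triangle C) and the mean with its SD in black. Lhx6 went from at most 0.117 cpm at E11.5 to at least 66.6 cpm at E16.5, whereas Sp8 went from at least 98.9 to at most 33.2 cpm.

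Dlx2, a homeobox factor of ventral progenitors and young interneurons, dipped at the middle stage. Pools A, B and C held 30.2, 29.9 and 23.6 cpm at E11.5, 9.68, 8.90 and 5.72 cpm at E14.5, and 49.4, 51.9 and 50.7 cpm at E16.5. The pools of the stages did not overlap. On the log2 scale Dlx2 fell by 1.71 (SE 0.17, adjusted p = 7.2e-06) to E14.5 and rose by 2.66 (SE 0.18, adjusted p = 3.5e-07) to E16.5. The net difference between E16.5 and E11.5, 0.94 (SE 0.17), stayed under the fold threshold.

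Dlx1, the close neighbour and paralog of Dlx2, held 8.61, 7.12 and 8.11 cpm at E11.5, 7.05, 7.16 and 7.54 cpm at E14.5, and 41.5, 54.0 and 48.2 cpm at E16.5. Pools of the first stages overlapped, and all pools of E16.5 lay above them. Its log2 fold change in the first interval, -0.14 (SE 0.10), did not pass (adjusted p = 0.31). In the second interval Dlx1 rose by 2.67 (SE 0.11, adjusted p = 2.0e-09). Its antisense transcript Dlx1as moved differently in the first interval, from 0.154–0.235 cpm at E11.5 to 2.95–3.33 cpm at E14.5 and 13.9–15.6 cpm at E16.5.

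Dlx5, a Dlx factor that acts later in the same program, held 4.34, 4.76 and 5.92 cpm at E11.5, 3.44, 4.19 and 2.79 cpm at E14.5, and 21.0, 19.9 and 19.1 cpm at E16.5. The E14.5 pools all lay below the E11.5 pools, but the log2 fold change of -0.44 (SE 0.19, adjusted p = 0.074) did not pass. In the 12 h libraries, with 15.4–17.7 cpm at E11.5 and 3.25–6.76 cpm at E14.5, it was -2.08 (adjusted p = 3.2e-04). In the second interval Dlx5 rose by 2.46 (SE 0.20, adjusted p = 4.6e-07), and all E16.5 pools lay above both earlier stages. Over the whole interval the log2 fold change was 2.02 (SE 0.19), but with the 12 h libraries in place of 0 h it was -0.11 (adjusted p = 0.76), since the level at E11.5 rose during the chase, as given below.

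Lhx6, the LIM homeobox factor required for interneurons of the medial ganglionic eminence, held 0.117, 0 and 0.0769 cpm at E11.5, 15.4, 17.1 and 15.5 cpm at E14.5, and 76.7, 68.0 and 66.6 cpm at E16.5. The 3 libraries of E11.5 together held 5 reads, against 1825 at E14.5 and 7377 at E16.5. Groups did not overlap at any step. Pooled levels were 230 times those of E11.5 at E14.5 (95% interval of counting error 98.5 to 710). By E16.5 the ratio was 1008 (432 to 3105). From E14.5 to E16.5, where each library held reads, the log2 fold change without a filter was 2.14 (SE 0.38, adjusted p = 5.7e-03, edgeR). Over all 15 libraries of E11.5, chase times included, Lhx6 collected 10 reads, and 8 of these 15 libraries held none.

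Npas1, a bHLH-PAS factor of interneurons, held 0, 0 and 0.0384 cpm at E11.5, 0.743, 1.32 and 0.698 cpm at E14.5, and 6.05, 5.07 and 6.14 cpm at E16.5. Its single read at E11.5 gave a pooled ratio of 412 at E16.5 over E11.5 with a counting interval of 73.7 to 16299, so that only its lower end is informative. Without a filter Npas1 rose by 2.60 (SE 0.67, adjusted p = 0.024, edgeR) from E14.5 to E16.5. Nkx2-1, which specifies the medial ganglionic eminence and is switched off in most cortical interneurons, held 0 reads in all 15 libraries of E11.5, which allows up to 0.0415 cpm over the 0 h group, and 0, 0 and 0.0268 cpm at E14.5. At E16.5 it held 0.419, 0.355 and 0.347 cpm, at least 8.88-fold higher than at E11.5 by the floor of 3 reads over the group. The ratio of E16.5 to E14.5 rested on 39 reads against 1 and was 42.2, with a counting interval of 7.15 to 1710.

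Gad1 and Gad2 encode the glutamate decarboxylases that make GABA, and both rose in each interval. Gad1 held 0.509, 0.385 and 0.538 cpm at E11.5, 10.9, 10.2 and 11.0 cpm at E14.5, and 48.2, 42.8 and 45.8 cpm at E16.5. It rose on the log2 scale by 4.65 (SE 0.11) in the first interval, with an adjusted p of 1.8e-12, and by 2.11 (SE 0.09) in the second, with 2.8e-09. Stages were well apart and pools of a stage close. Gad2 held 1.45, 0.914 and 1.23 cpm at E11.5, 7.13, 6.83 and 8.03 cpm at E14.5, and 40.1, 39.2 and 37.8 cpm at E16.5. It rose by 2.60 (SE 0.17, adjusted p = 7.6e-08) and then by 2.39 (SE 0.17, adjusted p = 2.1e-07), again with no overlap between stages.

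Sp8, a zinc finger factor, was the only member that was lower at E16.5 than at E11.5. It held 107, 99.8 and 98.9 cpm at E11.5, 50.3, 60.1 and 52.3 cpm at E14.5, and 27.9, 33.2 and 28.2 cpm at E16.5. Each stage lay below the one before. Sp8 fell by 1.76 on the log2 scale over the whole interval (SE 0.09, adjusted p = 7.2e-10), while the single steps of -0.84 (SE 0.09) and -0.91 (SE 0.09) had adjusted p of 2.7e-06 and 1.6e-06 but stayed under the fold threshold. Radial glia markers were lower over the same interval, in all 8 of 8 genes listed, and their summed level went from 9795–10338 cpm at E11.5 to 1375–1492 cpm at E16.5. Their part in the result for Sp8 was not tested.

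**Figure D2:**
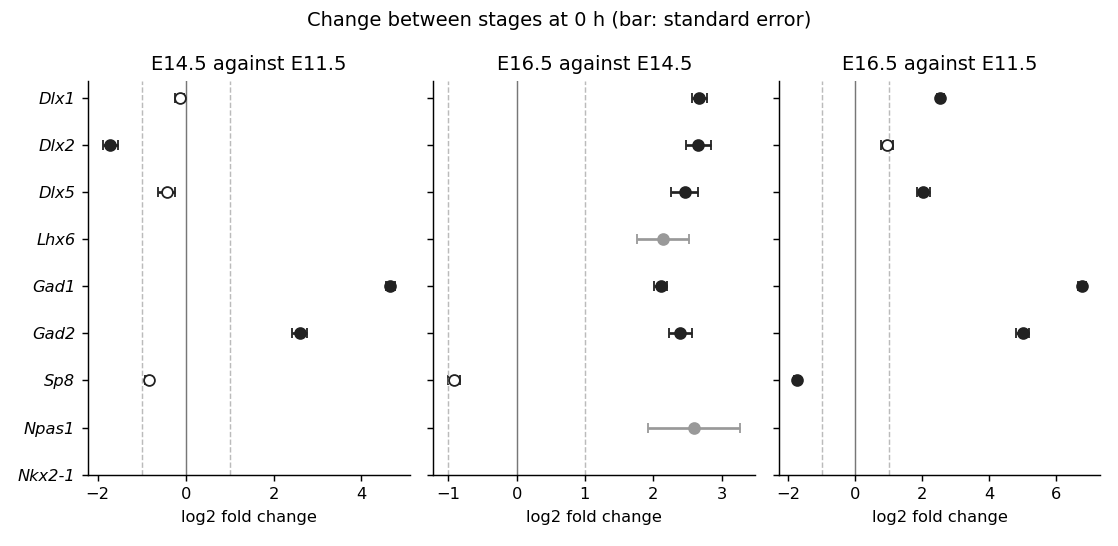
Log2 fold change of the members between stages at 0 h (horizontal axis; bars are 1 SE; dashed lines mark the fold threshold), filled where called, open where not, and grey for Lhx6 and Npas1 from the fit without a filter, shown only where each library of both stages held reads. From E14.5 to E16.5 Dlx1, Dlx2, Dlx5, Gad1 and Gad2 lie between 2.11 and 2.67, and Sp8 lies at -0.91.

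Levels per kilobase of exon, which allow genes to be set beside each other, placed Sp8 first at E11.5 with 22.3 ± 0.915 cpm per kb (SD, n = 3), then Dlx2 with 9.77 ± 1.29, Dlx5 with 2.21 ± 0.361 and Dlx1 with 1.47 ± 0.141. Gad2 followed with 0.204 ± 0.0457 and Gad1 with 0.0625 ± 0.0107, and no neighbours among these overlapped. At E14.5 Sp8 was still first with 11.9 ± 1.14, ahead of Lhx6 with 3.34 ± 0.201 and Dlx2 with 2.84 ± 0.736, which overlapped each other. Dlx5, Gad1, Dlx1 and Gad2 then lay between 1.25 and 1.53 cpm per kb, each overlapping its neighbour. At E16.5 the order was Dlx2 with 17.7 ± 0.425, Lhx6 with 14.7 ± 1.14, then Dlx1 with 8.88 ± 1.16 and Dlx5 with 8.83 ± 0.42, which overlapped. Gad2, Sp8 and Gad1 lay between 5.97 and 6.65 with overlapping neighbours, ahead of Npas1 with 1.91 ± 0.197 and Nkx2-1 with 0.132 ± 0.0137. Sp8 thus went from the first place to the sixth on this scale.

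Other genes of the lineage were read from lists chosen by role, beside the 29.2% of genes called from E11.5 to E16.5 (2702 of 18408 higher). Of 14 further lineage factors, 13 were tested, and from E11.5 to E16.5 7 rose and 2 fell, with a median log2 fold change of 1.61 against -0.04 over all genes. Dlx6os1, the noncoding transcript at the Dlx5 and Dlx6 locus, rose from 1.41–2.11 cpm to 43.8–54.2 cpm, and Sp9, the paralog of Sp8 that acts in ventral-born neurons, rose from 0.587–1.01 cpm to 18.1–20.5 cpm. Sp9 thus rose where Sp8 fell. Sox6, which acts downstream of Lhx6 in interneurons and is also known from radial glia, fell from 209–251 cpm to 48.1–60.6 cpm. Lhx8, a factor of ventral cholinergic and striatal lineages, was at 0 in all libraries at 0 h of E14.5 and E16.5.

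Among 9 migration receptors, 4 rose from E11.5 to E16.5 and 0 fell (median 0.92). Erbb4, the neuregulin receptor of migrating interneurons, went from 3.32–7.42 to 18.3–20.4 and 65.6–69.1 cpm. Robo1 and Nrp1, which cortical projection neurons also use, rose by 2.94 (SE 0.08) and 1.32 (SE 0.10) on the log2 scale to E14.5 and did not pass the threshold from E14.5 to E16.5. Of 5 genes for GABA packaging, uptake and breakdown, 1 rose and 0 fell (median 0.36), a share no larger than that over all genes. That gene was Slc32a1, which loads GABA into vesicles, and it went from 0.346–0.481 to 6.52–6.73 and 26.5–30.5 cpm, which is 6.11 (SE 0.18) on the log2 scale over the whole interval beside 6.76 (SE 0.12) for Gad1.

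Of 12 subtype genes 8 were tested over the whole interval, and 7 rose and 1 fell (median 1.86). Sst, the somatostatin gene, was too low at E11.5 to be tested and went from at most 0.0481 cpm to 44.6–69.5 cpm at E14.5 and 152–188 cpm at E16.5. Cck and Nos1 were the next by fold, and both are also known outside interneurons. Calb2, the calretinin gene, was the one that fell, from 14.6–20.3 to 4.53–7.45 cpm. Vip and Pvalb, which mark interneurons that mature later, were at 0 in all 0 h libraries of E11.5 and E14.5. Among factors of ventral progenitors, Olig1 and Olig2 rose over the whole interval.

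Markers of striatal projection neurons, which are also GABAergic, moved in the same interval as the Dlx genes. Of 12 striatal projection neuron markers 11 were tested, and 7 rose and 0 fell from E14.5 to E16.5, where 13.0% of all genes were called, with a summed level of 20.6–26.7 cpm at E11.5, 10.7–19.9 cpm at E14.5 and 34.4–45.5 cpm at E16.5. Drd2, a dopamine receptor gene, went from 0.0425–0.198 to 2.28–3.18 cpm, and Isl1, a defining factor that was too low to be tested, went from 0–0.033 to 0.735–2.43 cpm. Oligodendrocyte precursor markers summed to 116–144, 290–480 and 292–328 cpm in stage order, most of it from Olig1 and Olig2. Their sum thus rose before E14.5 and not after, although 3 of 5 markers rose from E14.5 to E16.5. At 0 h none of the markers of either list was at 0 in all 3 pools of a stage. The part of striatal or oligodendrocyte lineage cells in the results for the members was not tested.

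The tissue of the cultures was checked with the same tables. Cortical glutamatergic markers summed to 731–785, 1900–2134 and 2531–2656 cpm. E11.5 pools held more signal of mural or meningeal cells (410–618 cpm against 14.7–28.4 cpm at E16.5) and of erythroid cells (1396–3109 against 27.0–61.6 cpm), and of the thalamus list (79.8–87.0 against 4.87–6.14 cpm). Endothelial and microglial lists stayed at or under 12.0 cpm. Marker levels of cells outside the interneuron lineage thus moved with stage, and their part in the stage comparisons was not tested.

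The level of the members during the chase was compared between 12 h and 0 h within each stage. At E11.5, 3 of 6 members tested rose, where 3.64% of 18877 genes were called (244 higher and 444 lower). In these 12 h libraries the gene with the highest level was Gm42418, at 29686, 35413 and 67623 cpm in pools A, B and C. At 0 h of E11.5 it was Vim in pools A and B (6993 and 7225 cpm) and Gm42418 in pool C (9482 cpm). At 12 h it was Nnat at E14.5 and Tubb5 at E16.5. The part of this difference in the results for the members was not tested. Dlx5 climbed in each pool, from 4.34, 4.76 and 5.92 cpm at 0 h through 8.82, 7.68 and 11.4 cpm at 4 h to 16.2, 15.4 and 17.7 cpm at 12 h. The log2 change was 1.89 (SE 0.18, adjusted p = 7.0e-05), and the 12 h pools of E11.5 lay within the range of 14.2 to 21.3 cpm over all E16.5 libraries. Dlx1 went from 8.61, 7.12 and 8.11 cpm to 16.7, 16.3 and 13.6 cpm (1.06, SE 0.10, adjusted p = 6.2e-05), just past the threshold, and without pool B its change of 0.99 was not. Gad1 went from 0.509, 0.385 and 0.538 cpm to 1.58, 1.25 and 1.67 cpm (1.93, SE 0.27, adjusted p = 5.7e-04), on 35 reads at 0 h. Dlx2 (0.51, SE 0.11), Gad2 (0.75, SE 0.27) and Sp8 (0.34, SE 0.06) did not pass. Lhx6 did not appear at E11.5 during the chase, with 2 reads at 12 h in 3 libraries.

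At E14.5 0 of 8 members were called by edgeR, and DESeq2 and limma also called 0, where 1.93% of 18784 genes were called. In edgeR 4 of 8 had an unadjusted and 1 an adjusted p under 0.05. With the pool as a block 4 of 8 had an adjusted p under 0.05, and again 0 passed the fold threshold as well. Dlx2 went from 9.68, 8.90 and 5.72 cpm to 25.5, 14.1 and 11.52 cpm (1.05, SE 0.38, adjusted p = 0.14). It was higher at 12 h in all 3 pools, most in pool A, and with the pool as a block the log2 change was 0.99 with an adjusted p of 3.7e-06. At E16.5 0 of 9 were called by edgeR, and DESeq2 and limma also called 0, where 2.69% of 18733 genes were called. In edgeR 5 of 9 had an unadjusted and 3 an adjusted p under 0.05. With the pool as a block 7 of 9 had an adjusted p under 0.05, and again 0 passed the fold threshold as well. Sp8 went from 27.9, 33.2 and 28.2 cpm to 17.9, 23.3 and 19.2 cpm (-0.54, SE 0.10, adjusted p = 3.5e-03) and Gad2 from 40.1, 39.2 and 37.8 cpm to 29.3–30.6 cpm (-0.32, SE 0.05, adjusted p = 1.2e-03). Both lay lower at 12 h in each pool without reaching the fold threshold.

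The size of the change during the chase was then compared between stages by a stage-by-time term over 18 libraries, a test added after the levels had been seen. Against E11.5, 3 of 6 members tested had a lower log2 change at E14.5 (1.38% of 17224 genes were called, 172 of them lower) and 4 of 6 at E16.5 (1.73% were called, 185 of them lower), and these were Dlx5, Gad1 and Gad2, with Dlx1 at E16.5. Between E14.5 and E16.5 0 of 6 were called (edgeR; 0.0987% of genes), with 3 of 6 at an unadjusted p under 0.05, whereas with the pool as a block Dlx2 was called lower at E16.5 (-1.16, SE 0.16, adjusted p = 7.4e-04). Other lists also moved at E11.5 while the label was chased. From 0 to 12 h, 4 of 13 further lineage factors, 2 of 9 subtype genes and 2 of 5 oligodendrocyte precursor markers rose, and 2 of 5 microglial markers fell, whereas 0 of 11 striatal markers passed, beside the 3.64% of all genes called. The summed level of oligodendrocyte precursor markers went from 116–144 to 157–261 cpm at E11.5, and its part in the change of the members was not tested.

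**Figure D3:**
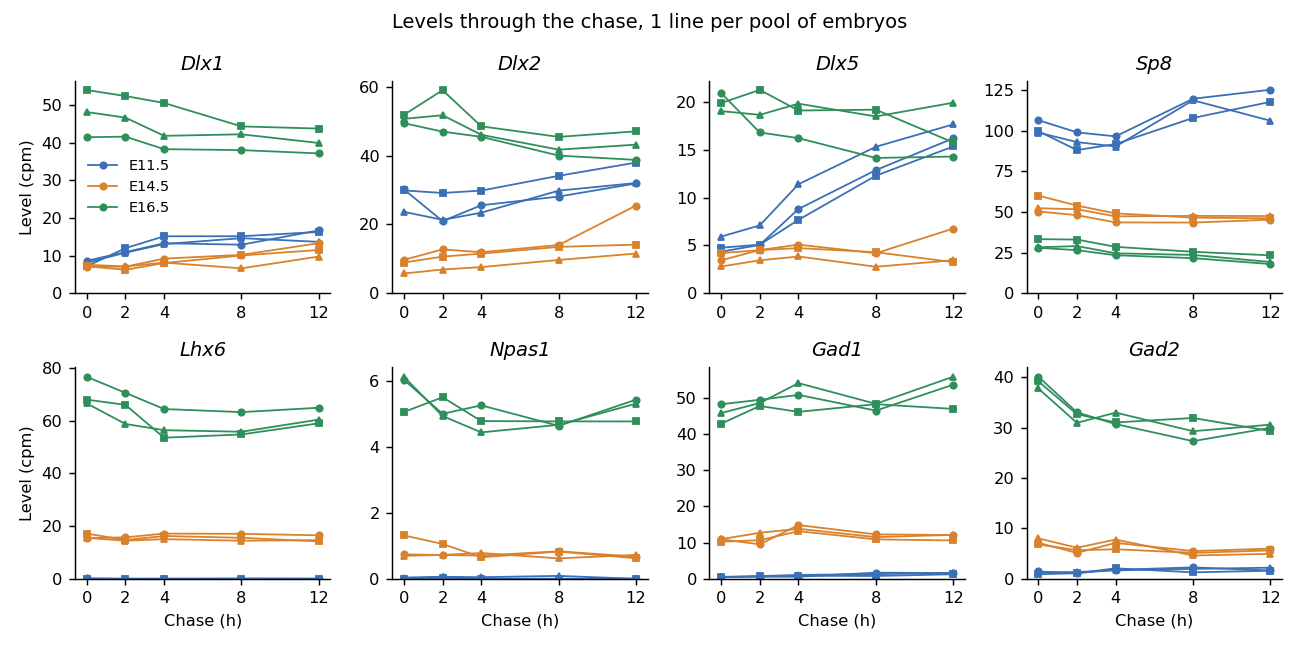
Level of the members in cpm (vertical axis, linear and scaled per gene) over 0, 2, 4, 8 and 12 h of chase (horizontal axis), with 1 line per pool (circle A, square B, triangle C) and 1 colour per stage. Dlx5 at E11.5 climbs from 4.34–5.92 to 15.4–17.7 cpm, while Dlx5 at E16.5 stays between 14.2 and 21.3 cpm.

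Conversion rates, the share of covered Ts read as C, are given where a gene had more than 500 covered Ts. At 0 h the rate of a whole library averaged 1.18% ± 0.23 (SD, n = 3) for E11.5. It averaged 1.10% ± 0.0763 for E14.5 and 1.86% ± 0.0573 for E16.5, so each gene was compared with its own library. Of 4 members with enough coverage in all 9 libraries at 0 h, 2 were called by limma's F-test over the stages (18.1% of 12530 genes were). Sp8 lay at 1.04%, 0.97% and 1.48% at E11.5, 1.29%, 1.35% and 1.08% at E14.5, and 1.02%, 0.92% and 0.98% at E16.5. Relative to its library this was -0.03, 0.17 and -0.93 on the log2 scale (adjusted p = 2.3e-04), with all 3 pools of E16.5 below all others. Dlx2 lay at 0.61, 0.29 and -0.56 relative to its library (adjusted p = 5.8e-03), again lowest in all pools of E16.5. As conversions that arise without label were not corrected for, these differences at 0 h are not shown to be label alone. Dlx1, with -0.05, -0.44 and -0.63 (adjusted p = 0.056), and Dlx5, with -0.07, 0.04 and -0.45 (adjusted p = 0.054), did not pass.

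The rate of Dlx2 fell early and then levelled off at E11.5. It was 1.75%, 1.78% and 1.80% there at 0 h and 0.75%, 0.94% and 0.81% at 12 h, 46.7% ± 5.20 of the 0 h rate (SD, n = 3). At E14.5 it went from 1.43%, 1.12% and 1.44% to 0.59%, 0.58% and 0.55%, or 44.0% ± 7.15. The course there was not a steady fall. Between 4 and 8 h it rose from 0.66% to 1.11% in pool B and from 0.64% to 1.08% in pool C, and fell from 0.70% to 0.53% in pool A. At E16.5 it went from 1.31%, 1.28% and 1.20% to 0.12%, 0.22% and 0.17%, or 13.5% ± 3.82. At E11.5 the mean rate was 1.05% at 2 h, 59.1% of the 0 h rate, and 0.81%, 0.84% and 0.83% at 4, 8 and 12 h. Since conversions that arise without label were not corrected for, the flat remainder is not shown to be label. The libraries themselves lay at 0.27%, 0.26% and 0.25% at 12 h, so that Dlx2 stood above its library at E11.5 and E14.5 and below it at E16.5. At 12 h the rate of Dlx2 was higher than that of 98.6% of 12349 genes for E11.5, of 95.7% for E14.5, but of only 20.7% for E16.5. The rate relative to the library at 12 h, tested after these values had been seen, was 1.62, 1.18 and -0.56 on the log2 scale (adjusted p = 0.019, limma), where 0.777% of genes were called. It was the only one called of 6 members tested there. Dlx1, next to it on the chromosome, held 24.4% ± 4.75, 38.2% ± 8.06 and 12.5% ± 2.06 of its 0 h rate at 12 h, and Dlx5 held 22.1% ± 5.07, 15.1% ± 3.58 and 12.4% ± 5.16. The Dlx5 rate at 12 h of E14.5 rested on only 4, 2 and 2 converted Ts in pools A, B and C. Lhx6 held 32.1% ± 8.06 at E14.5 and 12.8% ± 3.02 at E16.5.

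**Figure D4:**
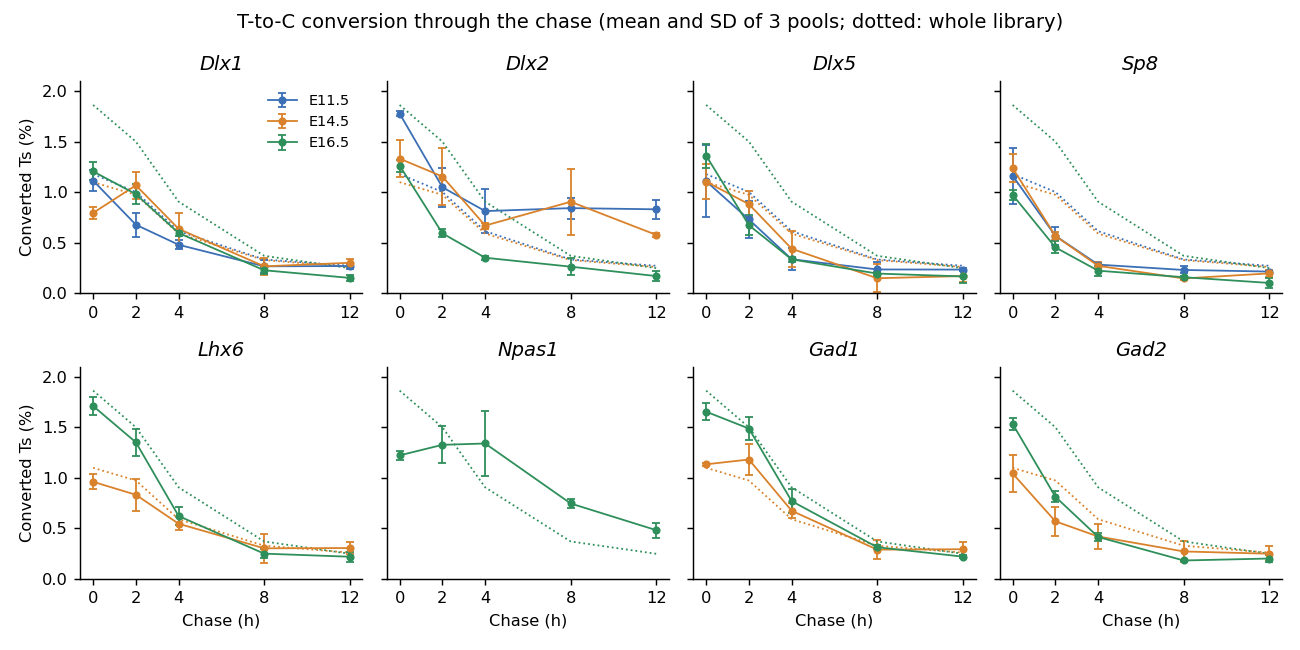
Conversion rate in percent (vertical axis) over the hours of chase (horizontal axis) for stages with more than 500 covered Ts, with 1 colour per stage, points at the mean of 3 pools, bars for the SD and dotted lines for the whole library. Dlx2 ends in single pools at 0.75–0.94% at E11.5 and at 0.12–0.22% at E16.5.

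Half-lives were kept where all 3 pools of a stage had more than 500 covered Ts at each time, an R2 of the decay fit over 0.6 and a half-life between 0 and 24 h. A rate also falls when unlabelled RNA is added, and the levels of Dlx5 and Dlx1 rose during the chase at E11.5, so half-lives there do not measure decay alone. In stage order they were kept for 3, 5 and 7 members, and the medians over all kept transcripts were 4.43, 4.60 and 3.48 h. Sp8 had the shortest mean half-life of the kept members at each stage, 2.41 ± 0.555 h (SD, n = 3) in the first, 1.96 ± 0.174 h in the second and 2.04 ± 0.236 h in the third. In stage order 3.52% of 10858, 0.824% of 10686 and 9.73% of 11850 kept transcripts were shorter than Sp8. Dlx5 had half-lives of 3.51 ± 1.14, 3.55 ± 0.468 and 2.15 ± 0.0548 h. Its fits at E14.5 rested on few converted Ts, with 0 of 571 covered Ts converted in pool C at 8 h. Single pools of Sp8 overlapped those of Dlx5 at E11.5, of Gad2 at E14.5 and of both at E16.5. Over whole 3′ untranslated regions Sp8 held 14 ATTTA and Gad1, with the longest mean half-life of the kept members at E16.5, held 4. Dlx5, with one of the shortest there, held 0. Npas1 also held 0 and was not kept, as pool B failed the R2 limit. Its fits at E16.5 gave 11.4, 16.1 and 13.8 h in pools A, B and C. No relation between these counts and half-lives was tested.

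At E16.5, where most members could be measured, Gad2 had 2.30 ± 0.193 h and Dlx2 had 2.33 ± 0.116 h, which overlapped, and 15.9% and 16.8% of 11850 transcripts were shorter. Lhx6 had 3.38 ± 0.162 h, near the stage median. Gad1 had 4.16 ± 0.157 h and Dlx1 had 4.04 ± 0.411 h, which overlapped. The enzymes Gad1 and Gad2 thus did not overlap at E16.5, with pools at 4.14, 4.32 and 4.01 h against 2.51, 2.12 and 2.27 h. At E14.5 they did overlap, with 5.42, 6.95 and 5.11 h for Gad1 and 1.85, 5.97 and 3.54 h for Gad2. Lhx6 at E14.5 ran from 4.07 to 9.42 h over pools, and Dlx1 at E11.5 from 3.55 to 3.80 h.

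Only Dlx5 and Sp8 could be compared over all stages. After scaling within each pool, limma's F-test called 0 of 2 (adjusted p = 0.61 and 0.22; Sp8 had an unadjusted p of 0.047), where 3.15% of 9505 transcripts were called. Leaving out pool B of E14.5, in which the Dlx1 fit failed (R2 0.34), let Dlx1 enter the test and be called (adjusted p = 0.037). In that setting 1.99% of 9630 transcripts were called. Pools A and C of E14.5 had R2 of 0.72 and 0.70 for Dlx1. Over all pools of E14.5 its rate at 2 h was 136% ± 27.3 of the 0 h rate (SD, n = 3). Dlx2 gave no kept half-life at E11.5, where its rate levelled off and R2 was 0.53, 0.48 and 0.26, nor at E14.5, where pools B and C failed. Npas1 reached its fit at E16.5 only, and pool B failed the R2 limit. Nkx2-1 had too few covered Ts at every stage.

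**Figure D5:**
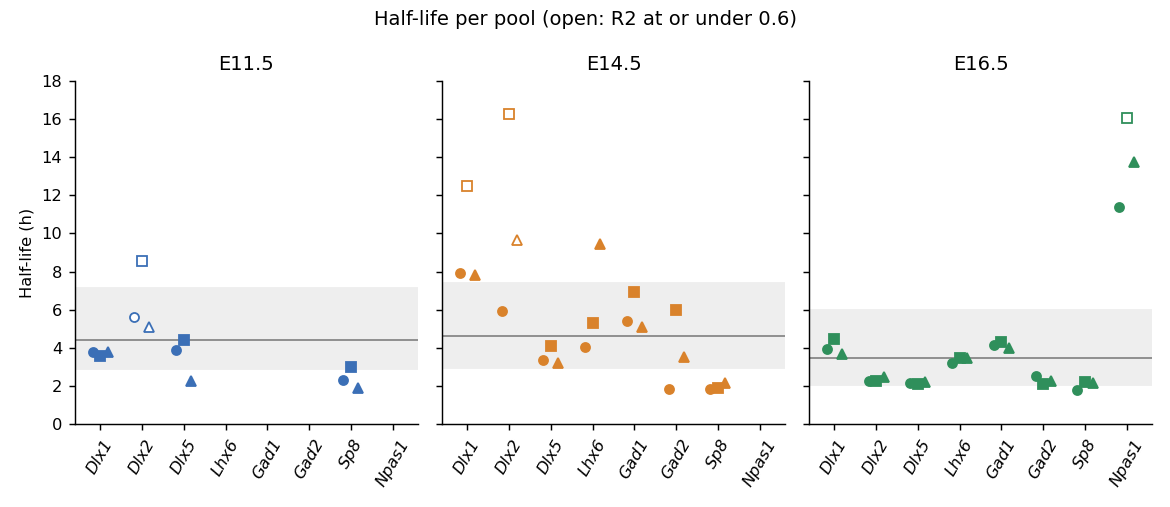
Half-life in hours (vertical axis) of each member by stage, with 1 point per pool that had enough covered Ts (circle A, square B, triangle C; open where R2 was at or under 0.6), a grey line at the stage median (4.43, 4.60 and 3.48 h) and a band from the 10th to the 90th percentile of kept transcripts. The mean of Sp8 is the lowest of the kept members at each stage, with single pools overlapping other members, and Gad1 and Gad2 separate at E16.5.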

How the data were processed

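SLAM-seq was performed by the authors on 45 libraries, and reads were aligned with SlamDunk to mm10 and summed over the exons of each gene (study's methods; how strand and multiply aligned reads were treated is not given in the sources used here). The authors deposited 9 tables, 1 per stage and replicate, with levels as CPM, covered Ts as raw counts and conversion rates as a fraction of covered Ts. No column was left unassigned. The half-life, R2 and mean columns of the authors were not used. Rates were taken as deposited, and conversions that arise without label were not corrected for. Cell pools were the replicates, so p-values measure the spread between pools of 1 dissection scheme.

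The members and all gene lists were chosen with earlier results of these data known. Levels were compared on covered-T counts with edgeR 4.0.16 (TMM, quasi-likelihood test, Benjamini-Hochberg adjustment over all genes tested, more than 10 counts in all libraries of the fit, adjusted p under 0.05 and absolute log2 fold change over 1). A read adds 1 count per covered T, so these counts are not independent molecules. In each library 100% of CPM values were whole multiples of 1 read (within 0.01 read), and the same test on the recovered reads of 14611 genes called 1996, 1641 and 3935 genes in the comparisons E14.5 against E11.5, E16.5 against E14.5 and E16.5 against E11.5. Intervals of pooled ratios are exact 95% intervals of reads and cover counting error only.

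Relative conversion rates (0.5 converted and 1 covered T added) were set against the library's summed rate. Half-lives were fitted as exp(-kx) to rates divided by the 0 h rate, z-scored per pool, and both were tested with limma 3.58.1. Exon lengths, positions and 3′ untranslated regions came from GENCODE on GRCm38. Alternatives were DESeq2 1.42.0, limma on log2(CPM + 0.5) and log2(CPM + 0.1), other filters, scalings and libraries, a replicate block, and each replicate left out. Scripts were tested on simulated data. Within a stage, samples of the same letter at 0 h and 12 h deviated together (correlation of deviations from group means 0.26 to 0.63 in 9 pairs, -0.52 to 0.18 for other letters), as they come from the same pool, and letters of different stages did not (-0.13 to 0.17).

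Genes named were the members, up to 3 genes per list with the largest called fold from E11.5 to E16.5, and the 10 genes that varied most like the members. Sox6, Lhx8, Calb2, Vip, Pvalb, Drd2 and Isl1 were chosen after their values were seen. Results for some genes of the lists are not reported here.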

Additional observations from a re-analysis of the deposited data

Results flagged for a closer look

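The change of level during 12 h of chase differed between stages for 4 members, by a stage-by-time term over 18 libraries (edgeR, Benjamini-Hochberg). The log2 change at E14.5 minus that at E11.5 was -1.67 for Dlx5 (SE 0.37, adjusted p = 0.013), -1.81 for Gad1 (SE 0.18, adjusted p = 5.9e-06) and -1.17 for Gad2 (SE 0.25, adjusted p = 9.4e-03). The log2 change at E16.5 minus that at E11.5 was -1.27 for Dlx1 (SE 0.16, adjusted p = 6.7e-05), -2.13 for Dlx5 (SE 0.36, adjusted p = 2.0e-03), -1.72 for Gad1 (SE 0.17, adjusted p = 6.5e-06) and -1.07 for Gad2 (SE 0.25, adjusted p = 0.014). Both comparisons share the E11.5 libraries, of which those at 12 h had Gm42418 as the gene with the highest level. Leaving out single pools ended the call of Dlx5 at E14.5 (3 of 9 pools, adjusted p = 0.053 to 0.055), of Gad2 at E14.5 (pool C of E11.5 or E14.5) and of Gad2 at E16.5 (pool C of E11.5, or A or B of E16.5). The cause was not tested.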

How the results depend on the processing

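Of 786 values of members under the alternatives, 751 kept their direction and their side of the threshold. Of the others, 12 lost a call and 15 gained a call. A further 7 changed direction without a call in either fit, and 1 changed direction with a call in at least 1 of them. With the 12 h libraries in place of 0 h, 5 of 6 members tested were called from E11.5 to E14.5, where 15.2% of 17615 genes were. In the 0 h libraries these were 3 of 6 and 16.1%. Dlx5 from E11.5 to E16.5 turned to -0.11 with the 12 h libraries. With edgeR's filterByExpr 5, 8 and 8 members were called in the comparisons E14.5 against E11.5, E16.5 against E14.5 and E16.5 against E11.5. In the same order 13.7%, 10.0% and 24.3% of 24688 genes were called. The filter used gave 3, 5 and 5 members, where 16.1%, 13.0% and 29.2% of genes were called. No filter on low counts likewise gave 5, 8 and 8 (10.7%, 7.79% and 19.1% of genes), since Lhx6, Npas1 and Nkx2-1 then entered. Counts summed over the 5 wells of each pool gave 7 of 8 members tested from E11.5 to E14.5, where 16.7% of 22448 genes were called. Differences of conversion rate in percentage points gave 4 members in place of 2, while the share of all genes called went from 18.1% to 26.1%. The 12 h libraries gave 1 member (0.777% of 12349 genes). The cause of other moves was not tested.

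Leaving out 1 replicate at a time gave 3 to 4 members (E14.5 against E11.5), 5 to 6 (E16.5 against E14.5) and 5 to 7 (E16.5 against E11.5), where pool B of E11.5 left out let Lhx6 enter. For 12 h against 0 h it gave 2 to 3 members at E11.5 and 0 at both later stages. Conversion rates gave 2 to 3 members and half-lives 0 to 1, the 1 being Dlx1 without pool B of E14.5. The replicate block changed no call of a member in the comparisons of level, rate or half-life, with 3, 0 and 0 members called for 12 h against 0 h in stage order. In the stage-by-time comparisons the block left 3 (E14.5 against E11.5) and 4 members (E16.5 against E11.5) and gave 1, Dlx2, for E16.5 against E14.5 in place of 0, and 375, 463 and 96 genes in place of 237, 298 and 17. Leaving out a pool gave 2 to 3, 3 to 4 and 0 to 1 members. Dlx5 from E11.5 to E14.5 was lost without pool A or B of E11.5 or B of E14.5 (adjusted p = 0.053 to 0.055), and Gad2 without pool C of E11.5 or E14.5. Gad2 at E16.5 against E11.5 was lost without pool C of E11.5 or A or B of E16.5, and Dlx1 at E16.5 against E14.5 was called without pool C of E14.5 (-1.04). Without pools A, B and C of E16.5 in turn, 7, 10 and 8 genes were called in place of 17.

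Over all genes, limma on log2(CPM + 0.5) called 1572 genes in place of 2390 for E16.5 against E14.5. For 12 h against 0 h, 688, 363 and 504 genes, in stage order, became 313, 128 and 125 with limma and 374, 204 and 169 with recovered reads. Without pool A they were 306, 235 and 303, and without pool B 343 at E11.5 and 190 at E14.5. Half-lives called 299 transcripts, 547 with R2 over 0.8, 2296 in hours without scaling, 0 with the replicate block (limma; 1861 at an unadjusted p under 0.05), and 3 to 192 in 8 of 9 fits with 1 replicate left out (3 without pool B of E16.5). Conversion rates called 2262 genes, 96 at 12 h, and 1457, 1261 and 1364 without pool A, B or C of E16.5. Depth limits Lhx6, Npas1 and Nkx2-1 at E11.5, where 0 to 5 reads per group leave only bounds, and Gad1 at E11.5, which rests on 35 reads.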

Other observations

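Levels of 8 members with at least 1 cpm on average were standardized after the mean of each of the 15 groups had been subtracted, and the 10 genes most like their mean profile over 45 libraries were Bsdc1 (Pearson's r 0.75), Zc3h3 (0.72), Auts2 (0.72), Wipf2 (0.72), Tiam1 (0.72), Sp2 (0.71), Gm18722 (0.71), Mical3 (0.71), Sf3a1 (0.71) and Nav2 (0.70), of 14405 genes compared. None of the 10 is in a list used here. The 5 libraries of a pool share their cells, and depth is shared by all genes of a library, so these values are a description.

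Among the members themselves, the same deviations were most alike for Gad1 and Gad2 (r 0.60 over 45 libraries), Dlx2 and Dlx5 (0.51) and Dlx1 and Dlx2 (0.51), and most opposed for Lhx6 and Sp8 (-0.40). Gad1 with Dlx2 gave -0.30. At E14.5 pools differed over their 5 wells. Dlx2 was at 14.8 ± 6.19 cpm in pool A (SD over 5 wells), 11.7 ± 2.12 in pool B and 8.27 ± 2.31 in pool C, in which order Dlx1 (9.35, 8.58 and 7.82 cpm) and Dlx5 (4.80, 4.19 and 3.26 cpm) also stood, with overlapping wells.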
